A study of Mus musculus with 4 samples.

Results

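The windows described here are stretches of the mouse genome that were covered to high depth in whole-genome bisulfite sequencing of embryonic stem cells. Bisulfite treatment converts unmethylated cytosine so that it is read as T, while methylated and hydroxymethylated cytosine are both still read as C. A 1 kb window of the autosomes and chromosome X (mm10) was taken when at least 3 of its CpGs were listed in all 4 libraries and its mean depth was 15 or more C/T reads per CpG in each library. Of 2001972 windows with 3 such CpGs, 914 met the depth rule (0.0457%). They held 8671 CpGs and formed 332 loci when gaps of up to 10 kb were bridged, of which 191 were a single window and 87 had 3 or more windows. Read depth chose these windows, so their depth is given as a description, whereas methylation played no part in the choice.

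The cells were mouse embryonic stem cells carrying floxed alleles of Ogt (Ogt fl/fl), the gene of O-GlcNAc transferase. Both groups were grown on mitomycin C-treated fibroblast feeders in medium with LIF and serum replacement, and both were sorted to remove the feeders. The Ogt iKO group (2 libraries) received 4-OHT for 6 days and was sorted for YFP, and the control group (2 libraries) went without 4-OHT over 6 days. Loss of Ogt, exposure to 4-OHT and the YFP sort therefore cannot be told apart. The recombinase and its driver are not named in the sources used here. The names of the deposited tables carry ESC1 for replicate 1 and ESC2 for replicate 2 in both groups. No label says whether these mark cell lines, separate cultures or aliquots, so the spread between the 2 libraries of a group may be technical.

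Deep coverage over a short stretch can arise where a genome holds many copies of a sequence and the reference holds few, so that reads from all copies gather on those few. Mouse pericentromeric heterochromatin is built of tandem satellite units that are normally heavily methylated. The ribosomal RNA genes are tandem arrays in which some copies are active and others are silenced and methylated, and the reference holds only part of one. Segmental duplications and young retrotransposons supply other near-identical copies. A level measured at such a window is an average over all copies whose reads were placed there.

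Mean depth over all CpGs listed in every library was 4.22 and 3.79 reads in iKO and 3.67 and 3.46 in control. Read counts summed over the CpGs of the deep windows, in which a read counts once for each CpG it covers, were 351136 to 396291 per library, 0.601% to 0.647% of the sum over all windows. Their median depth was 25.9 reads per CpG, against 3.81 in the other windows. Over Ogt itself (chromosome X, 101640011 to 101684351, 257 CpGs) depth relative to the rest of the X was 1.07 and 1.03 in iKO, with 1.11 and 0.942 in control. The labels do not give the deleted segment, so that ratio does not check the knockout. At the edge of the depth rule, 117 windows had a lowest library depth of 14 to 15 reads and pooled levels of 59.1% and 57.9% in iKO against 63.2% and 65.4% in control. Just inside it, 89 windows at 15 to 16 reads had 64.7% and 60.8% against 66.9% and 69.3%.

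The 3 promoter sequences printed here lie in deep windows and show where the measured CpGs are. Of 32851 RefSeq promoters (250 bases before to 50 after a gene start, GRCm38.p6), 9 promoters of 7 genes overlapped the deep windows. All 39 of their distinct CpGs were listed in all 4 libraries. CG was searched as a plain 2-letter motif, the same on both strands, and 94.6% of all these promoters hold at least 1, with a median of 7. Capitals mark each CG. The predicted gene Gm33862 lies in the Sfi1 locus of chromosome 11 (chr11:3136826-3137125, plus strand). The predicted gene Gm40237 starts in a tandem repeat (chr4:118547156-118547455, plus strand). Sp140 encodes a nuclear body protein of immune cells and lies in the duplicated Sp100 family region (chr1:85600453-85600752, plus strand).
Gm33862: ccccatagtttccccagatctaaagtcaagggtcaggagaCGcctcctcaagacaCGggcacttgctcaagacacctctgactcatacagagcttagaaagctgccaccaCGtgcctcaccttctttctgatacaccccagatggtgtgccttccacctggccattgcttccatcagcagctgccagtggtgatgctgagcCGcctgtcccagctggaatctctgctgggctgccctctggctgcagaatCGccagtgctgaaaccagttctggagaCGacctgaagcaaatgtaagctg
Gm40237: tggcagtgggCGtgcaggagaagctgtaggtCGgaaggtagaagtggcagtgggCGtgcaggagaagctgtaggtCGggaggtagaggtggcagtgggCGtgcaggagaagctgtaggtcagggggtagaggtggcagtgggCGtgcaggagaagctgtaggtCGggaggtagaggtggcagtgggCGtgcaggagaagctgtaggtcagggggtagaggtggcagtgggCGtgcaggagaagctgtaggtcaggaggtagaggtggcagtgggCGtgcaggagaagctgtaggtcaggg
Sp140: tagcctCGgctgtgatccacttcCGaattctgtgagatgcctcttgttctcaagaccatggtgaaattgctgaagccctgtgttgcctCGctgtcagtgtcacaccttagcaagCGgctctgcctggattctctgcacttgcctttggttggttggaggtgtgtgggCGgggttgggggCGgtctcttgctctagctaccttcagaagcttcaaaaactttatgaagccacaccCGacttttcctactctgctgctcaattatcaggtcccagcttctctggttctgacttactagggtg

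In the Gm33862 sequence the 6 CpGs were read 59.7 to 67.3 times each on average per library. Their pooled level was 60.9% in both iKO libraries and 70.4% and 77.0% in the controls, a difference of -12.8 points. CpG number 3 was the least methylated in 3 of the 4 libraries, at 27.4% and 38.2% in iKO and 32.8% and 45.0% in control. In the Gm40237 sequence successive CpGs lay 21, 23 or 44 bases apart. Depth in iKO replicate 1 climbed along it from 7 reads at the first CpG to 109 at the eighth. Its pooled level was 62.1% and 58.7% in iKO and 65.5% and 72.2% in control, a difference of -8.45 points. The Sp140 promoter was covered by 7.29 to 19.9 reads per CpG, and its libraries overlapped, at 72.7% and 48.4% in iKO against 70.6% and 60.5% in control. Over the 9 promoters the difference ran from -36.6 points at Trpm8 to 19.6 points at A530040E14Rik, each with 1 CpG.

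Over all deep windows pooled, methylation was lower in both iKO libraries than in both controls. The level was 55.3% and 52.3% in replicates 1 and 2 of iKO, against 57.9% and 58.3% in those of control, the order in which values are given throughout. That is 53.8% ± 2.13 (SD, n = 2) against 58.1% ± 0.301 (SD, n = 2), a difference of -4.34 points with a pooled SD of 1.52. Without iKO replicate 2 the difference was -2.83 points. An exact permutation test (two-sided, 2 libraries against 2) gave p = 0.333, the smallest it allows, so no single value here can pass 0.05. All other windows stood at 66.2% and 63.9% in iKO and 71.1% and 74.6% in control, a difference of -7.82 points. Within each library the deep windows were 10.9, 11.6, 13.2 and 16.3 points below the rest, in the same order of libraries. The gap was narrower in both iKO libraries, by 3.48 points (pooled SD 1.61, exact permutation p = 0.333). It was narrower by 1.91 points without control replicate 2, and by 1.94 points when windows were weighted equally in place of reads.

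The pooled value leans on a few very deep loci. Window by window, the median difference was -5.86 points among the deep windows and -7.65 points among all windows. Both iKO libraries lay below both controls in 561 of 914 deep windows (61.4%), and the same was true of 38.1% of all windows tested. Both lay above in 23 (2.52%), against 4.7% of all windows. Deep windows hold more reads per CpG, which narrows their counting error, so these shares are not on an equal footing. The same holds below wherever a set of deep windows is given beside all windows. By locus, 208 of 332 were lower in both iKO libraries, 7 were higher and 117 overlapped. Of the 87 loci with 3 or more windows, 78 were lower, 9 overlapped and none was higher. These locus counts have no background, as no stretches of like length and depth were taken elsewhere. All other windows pooled were also lower in both iKO libraries.

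**Figure D1:**
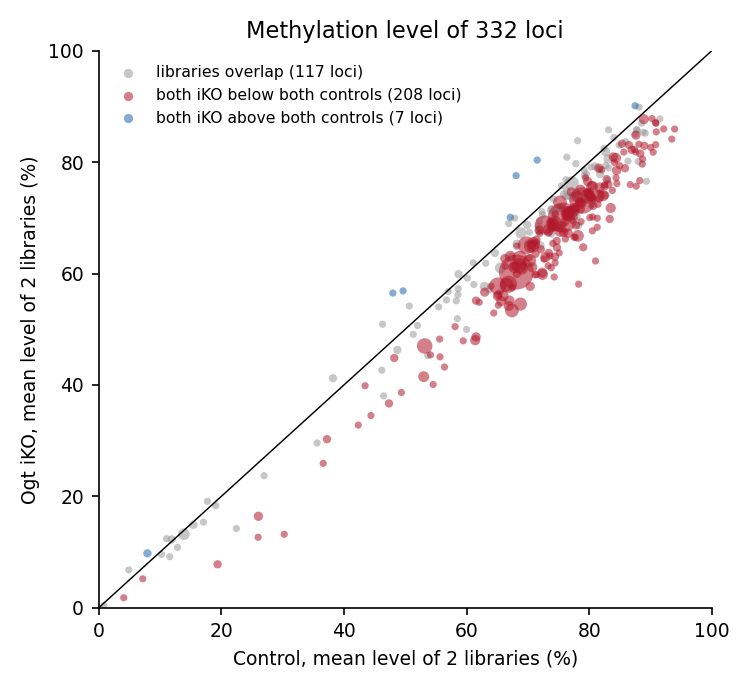
Methylation level of each of the 332 loci, mean of 2 control libraries (horizontal axis, %) against mean of 2 Ogt iKO libraries (vertical axis, %); each point is a locus, its area grows with the number of windows, and the line marks equal levels. The 208 loci lower in both iKO libraries lie below the line and the 7 higher ones above it, while the loci near the lower left corner lie close to the line.

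No deep window passed the window test. A quasi-binomial model of methylated and total reads was fitted to all 2001972 windows, with Benjamini-Hochberg adjustment over all of them and a minimum difference of 10 points. It called 33 windows, all lower in iKO (0.00165% of those tested), and 0 of the 914 deep windows. Without any 1 library it called 0 to 1 windows in all. Dispersion was moderated within classes of mean reads per window and library. The classes of 100 to 200 and 200 to 500 reads held 309 and 299 of the deep windows. Moderation added only 0.997 and 1.26 degrees of freedom there, against 72.3 at 20 to 50 reads. Windows of those 2 classes could hardly be called whatever their difference, so their lack of calls says little. An unadjusted p under 0.05 was reached by 153 of the 914 deep windows (16.7%), against 11.6% of all windows. That order depended on the libraries and the fit. The deep share was 2.08% without iKO replicate 2 and 2.74% without control replicate 2, below the 4.53% and 4.47% of all windows in the same fits. It was 5.58% without iKO replicate 1 (6.25% of all windows) and 7.77% without control replicate 1, the 1 omission of the 4 in which it stayed above the share of all windows. With the replicate number as a block it was 7.22% (7.57% of all windows), and with dispersion moderated once over all windows 36.1% (11.5%). Run on the same windows, limma called 0 deep windows and had 12 at an unadjusted p under 0.05 (1.31%), against 10.5% of all windows. edgeR's quasi-likelihood test, run on 18829 windows of higher depth, called 4 deep windows, all lower in iKO, against 0.117% of the windows it tested. The rule for naming windows therefore names none, and the windows singled out below were chosen after their values were seen.

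**Figure D2:**
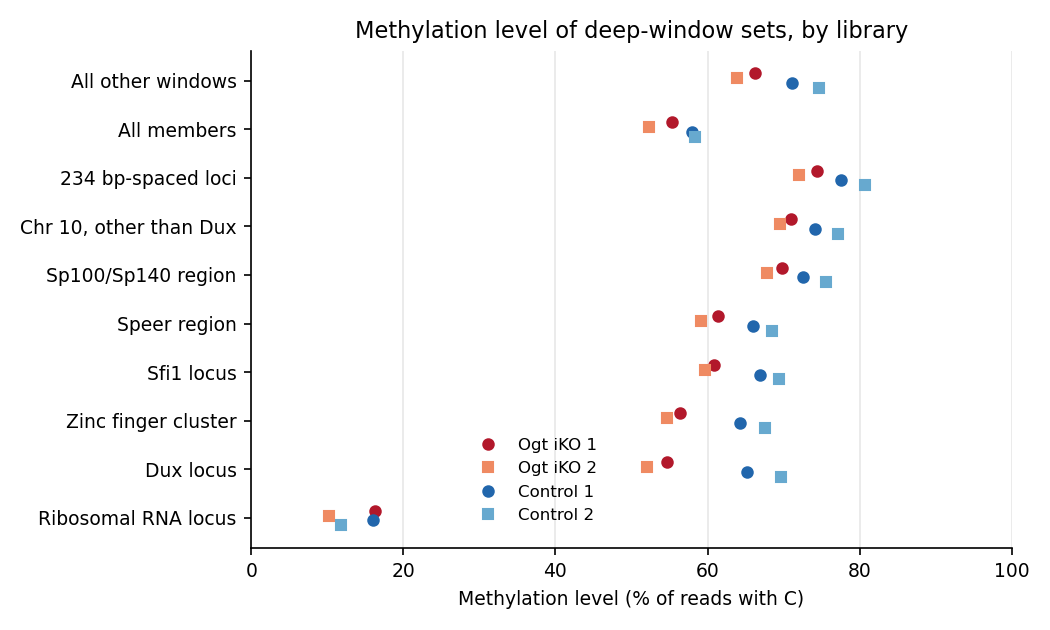
Methylation level (% of reads with C, pooled over the CpGs of each set) in the 4 libraries for all other windows, all deep windows and 8 sets of deep loci; circles are replicate 1 and squares replicate 2. Both iKO libraries lie left of both controls in every row except the ribosomal RNA locus, where replicate 1 of both groups lies near 16%.

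The ribosomal RNA locus was the deepest and the least changed of the long loci. It lies on chromosome 17 from 39843001 to 39849000, over Rn18s-rs5, a sequence related to the 18S ribosomal RNA gene, and the transcript AY036118. Its 6 windows held 587 CpGs, and mean depth was 116 reads per CpG. Methylation was 16.2% and 10.2% in iKO, and 15.96% and 11.8% in control. The groups overlapped, and the difference of -0.67 points was smaller than the pooled SD of 3.64. Here the replicate numbers, not the groups, lay apart: in each of the 6 windows replicate 1 was above replicate 2 in both groups.

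That order was common in the weakly methylated deep windows as a class. Of the 28 deep windows with a mean level under 20%, replicate 1 was above replicate 2 in both groups in 21. Windows of the ribosomal RNA locus are among the 28, and the share without them is not given here. Over all deep windows 155 of 914 showed that order, and over other windows under 20% the share was 21.3%. An example was the window in Zc3h7a on chromosome 16 from 11144001, at 12.8% and 8.89% in iKO and 15.6% and 10.1% in control. The locus in Lars2, the mitochondrial leucyl-tRNA synthetase gene, on chromosome 9 from 123461001 stood at 19.5% and 10.3% in iKO and 16.9% and 14.0% in control. On the mitochondrial sequence of these libraries 0.303% and 0.263% of reads had C in iKO and 0.264% and 0.251% in control, so replicate 1 was the higher there too, by a small fraction of the distance seen at the ribosomal RNA locus. What sets the replicates apart at these loci was not tested.

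Without the ribosomal RNA locus the pooled level of the deep windows was 63.8% and 61.7% in iKO and 67.5% and 69.4% in control. The difference became -5.74 points. The amount by which the gap to the rest of the genome was narrower in iKO than in control became 2.08 points, from 3.48. That locus alone held 587 of the 8671 CpGs. A window on chromosome 6 from 3201001 shared runs of 8 successive CpG distances with it, as did short stretches of chromosomes 10, 11 and 13. Its level was 14.2% ± 10.02 (SD, n = 2) in iKO and 22.5% ± 3.47 (SD, n = 2) in control, and the libraries overlapped.

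**Figure D3:**
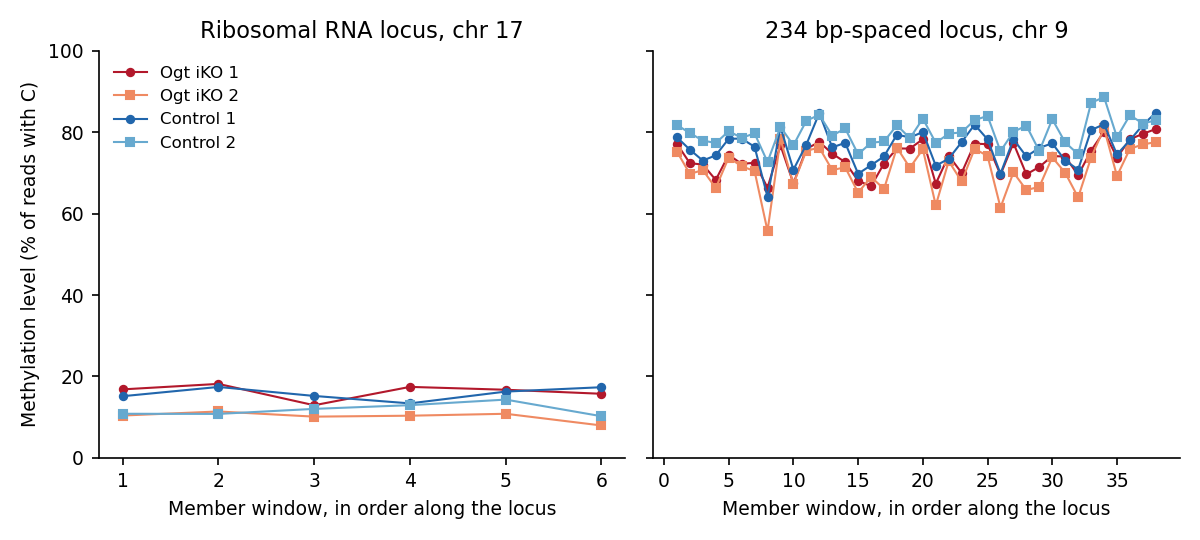
Methylation level (%) of each deep window, in order along the locus, for the 6 windows of the ribosomal RNA locus of chromosome 17 (left) and the 38 windows at the start of chromosome 9 (right), with 1 line per library. On the left replicate 1 lies above replicate 2 in both groups; on the right the lines stay between 55.7% and 88.6%, with control replicate 2 mostly on top.

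The start of chromosome 9 carried evenly spaced CpGs. The locus from 3000001 to 3039000 held 38 windows and 716 CpGs, with Mir101c as its only annotated gene. Of its listed CpGs, 39.8% had another CpG exactly 234 bases further on, the unit length known for mouse major satellite. Methylation was 74.3% and 72.0% in iKO and 77.3% and 80.6% in control, a difference of -5.78 points (pooled SD 2.01), with both iKO libraries below both controls. Another 2 loci off chromosome 10 shared that spacing in at least 15% of their CpGs, a limit set after seeing the data. The window in Gm33838 on chromosome 9 from 35305001, where the spacing rests on 3 pairs among 13 CpGs, stood at 76.9% and 72.1% in iKO and 81.3% and 82.2% in control. The locus on chromosome 14 from 19415001 to 19420000 stood at 74.8% and 73.0% against 78.9% and 81.5%. Its commonest spacing was 351 bases, with 18 pairs against 17 at 234 bases. Over the 3 loci, 39 of 44 windows had both iKO libraries below both controls and none had them above, beside 38.1% and 4.7% of all windows. A further deep locus with no gene, on chromosome 2 from 98662001 to 98668000, had 102.7 and 100.4 reads per CpG in iKO and levels of 77.7% and 73.5% in iKO and 78.9% and 82.0% in control.

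The Sfi1 locus held more deep windows than any other locus. Sfi1 encodes a centrin-binding protein of the centrosome, and 64 of the 68 windows between 3127001 and 3200000 on chromosome 11 overlapped it. Mean depth was 69.2 reads per CpG over 652 CpGs. Methylation was 60.9% and 59.6% in iKO, with 66.9% and 69.4% in control. Both iKO libraries were lower, by 7.86 points (pooled SD 1.41), and 58 of the 68 windows showed that order while 1 showed the opposite (38.1% and 4.7% over all windows). The window from 3193001, with 59 CpGs, had the lowest unadjusted p of all deep windows, at 52.0% and 47.8% against 64.9% and 70.1%. Its adjusted p in the quasi-binomial fit was 0.237.

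Opposite-strand reads at this locus had A in place of G more often than in windows outside the deep set. The deposited tables count reads with G among those with G or A on the strand opposite a listed cytosine. A cytosine there is read as G whatever its methylation, and A marks a C-to-T difference or an error. The file headers do not say whether a row joins both strands of a CpG, so the share is a description. In the Sfi1 locus 94.2% of such reads had G in both iKO libraries, with 94.0% and 94.2% in the controls. The Speer region had 94.4% to 94.7%, the ribosomal RNA locus 99.8%, and the windows outside the deep set 99.8%. Over all deep windows the share was 97.6% and 97.7% in iKO and 97.7% and 97.8% in control, a difference of -0.0398 points (pooled SD 0.0549, exact permutation p = 0.667). In the Sfi1 locus the share was higher in both iKO libraries, by 0.0854 points (pooled SD 0.0608), and in the Sp100 and Sp140 region it was lower in both, with a difference of -0.174 points (pooled SD 0.033). A C-to-T difference is read as an unmethylated cytosine, so the levels were also computed with depth corrected for the G share and over CpGs with a G share of at least 0.9. The difference of all deep windows was then -4.42 and -4.40 points, beside -4.34. That of the Sfi1 locus was -8.39 and -8.86 points, beside -7.86.

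Duplicated gene families made up several other blocks. The Sp100 and Sp140 region of chromosome 1, a family of interferon-responsive nuclear body proteins, held 96 windows in 8 loci. Pooled levels were 69.8% and 67.9% in iKO and 72.6% and 75.6% in control, a difference of -5.24 points. Of these windows, 52 (54.2%) had both iKO libraries below both controls and 5 had them above, where 38.1% and 4.7% of all windows did. Among all deep windows, which are closer in depth, the shares were 61.4% and 2.52%. Genes with a family symbol, Sp110 and Sp140, overlapped 19 windows. Both iKO libraries were lower in 7 of those 19, a share near the 38.1% of all windows and below the 61.4% of deep windows. Other genes of the region, such as A530032D15Rik and C130026I21Rik, were counted by symbol as predicted genes, so the 19 windows need not cover the family. At the locus of Sp110 and Sp140, from 85584001 to 85626000, levels were 67.9% and 69.6% in iKO and 71.5% and 73.9% in control.

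The Speer region of chromosome 5 takes its name from a family of glutamate-rich proteins expressed in spermatogenesis, and its loci overlapped Speer4e, Speer8-ps1 and Speer4cos. It held 84 windows in 12 loci. Levels were 61.4% and 59.1% in iKO and 66.0% and 68.4% in control, a difference of -7.00 points, and 58 windows had both iKO libraries below both controls and none had them above (38.1% and 4.7% of all windows). The zinc finger cluster of chromosome 4, whose genes include repressors of retrotransposons, held 77 windows at 56.4% and 54.7% in iKO and 64.3% and 67.5% in control, a difference of -10.3 points. Of the loci with 3 or more windows, 4 of the 5 with the largest decrease lay in it, led by the one over Zfp978 from 147390001 to 147405000 (-14.3 points).

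Dux showed the other large decrease among the long loci. Duxf3 is a copy of the double homeobox factor that switches on genes of the 2-cell embryo, and it lies in a tandem array on chromosome 10. The 9 deep windows from 58221001 to 58240000 stood at 54.7% and 52.0% in iKO and 65.2% and 69.6% in control. The difference was -14.0 points (pooled SD 2.61). The 2 windows of 36 CpGs differed most: from 58224001 levels were 44.6% and 44.5% against 61.9% and 62.2%, and from 58232001 they were 43.0% and 38.7% against 55.3% and 65.1%. Of the 9 windows, 7 had both iKO libraries lower and 1, from 58230001, had them higher, at 43.1% and 39.1% against 34.7% and 33.3%. Over all windows the shares were 38.1% lower and 4.7% higher. Adjusted p at 58224001 in the quasi-binomial fit was 0.243.

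Chromosome 10 held far more of the deep windows than any other chromosome. It carried 370 of the 914 (40.5%), which is 0.348% of its windows, and the next highest share was 0.0814% on chromosome 1. Of these 370 windows, 255 lay in the first 20 Mb and 360 in the first 60 Mb. Without the Dux locus they formed 361 windows in 164 loci, at 70.9% and 69.5% in iKO and 74.2% and 77.1% in control, a difference of -5.42 points. Some overlapped protein-coding genes, among them Esr1, the estrogen receptor gene (61.8% and 60.5% in iKO against 65.2% and 70.4% in control). A locus in Syne1, a nuclear envelope protein gene, stood at 71.4% and 70.2% against 75.5% and 77.7%.

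Many of these windows shared their spacing of CpGs with other places in the reference. In the chromosome 10 windows outside the Dux locus, 54.9% of runs of 8 successive CpG distances occurred at 2 or more places in the genome, and the other runs at a single place. In the deep windows of other chromosomes 12.1% occurred at 2 or more places, and in windows outside the deep set 1.71% did. The repeated runs of the chromosome 10 windows numbered 1052 and occurred at 28731 places. Depth at those places was 31.8 reads per CpG in the deep windows of chromosome 10, a value the depth rule sets. Places more than 10 kb from every deep window (a distance set after seeing the data), which that rule did not choose, had 6.28 reads per CpG on chromosome 10 and 3.04 on other chromosomes. By chromosome the latter ranged from 2.35 to 4.66. Along chromosome 10 these places had 10.8 reads per CpG in the first 10 Mb, 7.03 at 10 to 20 Mb, 6.78 at 20 to 40 Mb, 6.73 at 40 to 60 Mb and 5.52 beyond 60 Mb. The first 2 of these bins held 78 and 60 places. How reads that match several places were assigned is not given in the sources used here. Whether the reference lacks copies of these sequences, and what sets the depth of chromosome 10 apart, was not tested.

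**Figure D4:**
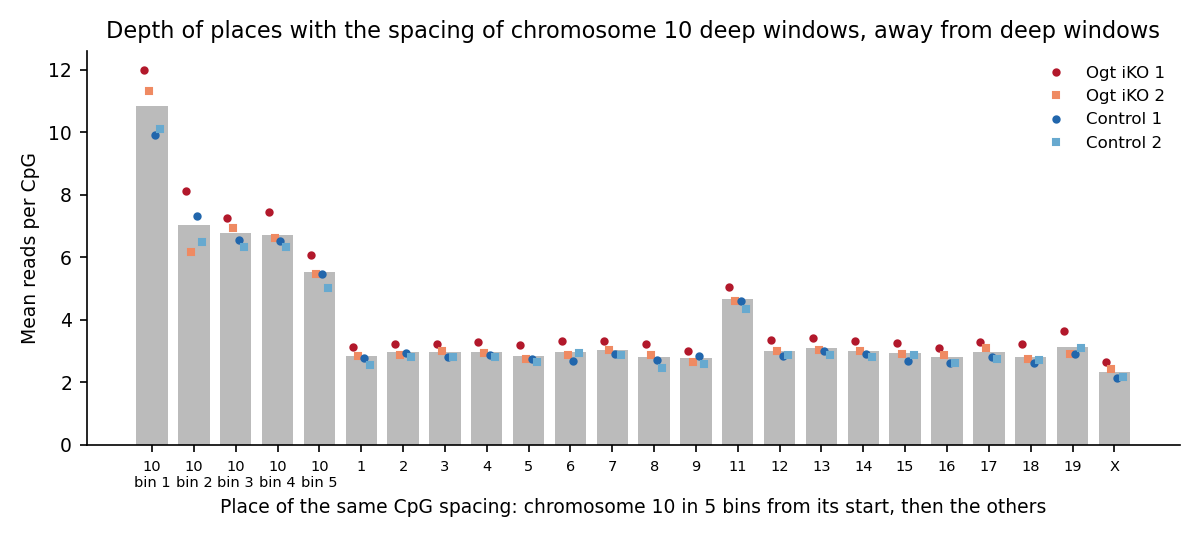
Mean reads per CpG (bars, mean of 4 libraries; points, single libraries) at places that share a run of 8 CpG distances with the deep windows of chromosome 10 and lie more than 10 kb from every deep window, for 5 bins of chromosome 10 (0 to 10, 10 to 20, 20 to 40, 40 to 60 and beyond 60 Mb from its start) and for every other chromosome. Depth is 10.8 in the first bin and 5.52 in the last, and between 2.35 and 4.66 on the other chromosomes; in each library all 5 bins lie above every other chromosome.

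Methylation at the places of these runs was lower in iKO in each of 3 groups of places. In the deep windows of chromosome 10 the matching places stood at 72.0% and 70.5% in iKO and 75.5% and 78.3% in control. Elsewhere on chromosome 10 they stood at 61.0% and 60.1% against 65.8% and 67.7%, and on other chromosomes at 58.6% and 56.8% against 64.4% and 66.7%. The differences were -5.67, -6.21 and -7.83 points, with pooled SDs of 1.55, 1.03 and 1.49. Since reads of one copy may be placed on another, these are not independent measurements.

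A group of 5 loci on chromosome 10 had a second kind of period, with CpGs 206, 208 or 212 bases apart. Tandem units of about that length are known from the promoters of young mouse L1 retrotransposons, and whether these loci are such promoters was not tested. Their 255 CpGs in 14 windows were at 44.2% and 45.0% in iKO and 53.0% and 53.3% in control, a difference of -8.52 points (pooled SD 0.417). The other windows of chromosome 10 outside Dux differed by -5.34 points, at a higher level (means of 72.0% in iKO and 77.3% in control). The size of the difference moved with the level over all windows, as given below, so the 2 values are not on an equal footing. In the window from 32972001, where 46 CpGs were read, levels were 5.24% and 5.68% in iKO and 17.01% and 15.3% in control, and the adjusted p in the quasi-binomial fit was 0.248. The window from 23475001 stood at 15.2% and 10.2% against 23.0% and 29.0%. This group was picked by spacing after the data had been seen, so no p is given for it as a group.

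Mitochondrial sequence accounted for little of the deep set. A stretch of chromosome 1 from 24612977 to 24615735 shared 47 runs of CpG distances with the mitochondrial genome, and 1 deep window, from 24615001, lay at it. Its level was 0.194% and 0.687% in iKO and 0.619% and 1.09% in control, against 0.251% to 0.303% on the mitochondrial CpGs. Over 21 CpGs counted for this mitochondrial copy, which are not all that the stretch lists, mean depth was 19.3 to 21.7 reads. Their level was 0.223% and 1.98% in iKO and 3.51% and 3.55% in control. By gene symbol, no deep window overlapped an annotated gene of the groups listed for mitochondrial copies, small nuclear, nucleolar and transfer RNAs, histones and X-linked multicopy genes. A gene of any kind overlapped 447 of the 914 windows (48.9%).

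Loci against the trend were few and short. Of the 7 loci higher in both iKO libraries, 6 were single windows of 3 to 10 CpGs. The largest increase was at chromosome 10 from 55052001, where 3 CpGs stood at 78.7% and 76.5% in iKO and 63.8% and 72.3% in control. In the 2-window locus in Gm36876 on chromosome 11 from 109011001, 47 CpGs stood at 9.96% and 9.62% against 8.02% and 7.88%. Among the 87 loci with 3 or more windows, the smallest decreases besides the ribosomal RNA locus were at chromosome 10 from 8601001 (82.1% and 81.6% against 81.1% and 84.3%) and over Tmem267 on chromosome 13 from 119596001 (78.0% and 74.4% against 76.5% and 77.8%), and in both the libraries overlapped.

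Pooled by class, the decrease was smaller in the deeper and the CpG-richer windows. By depth, the 569 windows at 15 to 30 reads per CpG differed by -6.12 points and the 234 at 30 to 60 by -5.51. The 104 windows at 60 to 120 differed by -3.88 points, and the 7 at 120 or more by -2.15 with overlapping libraries (exact permutation p = 0.333 for the first 3 classes and 0.667 for the last). By CpG number, the 269 windows with 3 to 5 CpGs differed by -6.30 points, the 422 with 6 to 10 by -5.90 and the 168 with 11 to 20 by -5.77. The 55 windows with 21 or more CpGs stood at 35.1% and 30.6% in iKO and 36.8% and 34.8% in control, so the libraries overlapped and the difference was -2.93 points. Those 55 windows and the 2 deepest classes include the ribosomal RNA windows. Very deep loci were not alike: the Sfi1 locus differed by -7.86 points and the window in Gm33838 by -7.26. Among weakly methylated ones, chromosome 3 from 5860001 differed by -2.40 points, Zc3h7a by -2.01 and Lars2 by -0.559. Chromosome 16 from 57391001 differed by 1.37 points, and at all of these the libraries overlapped. Whether depth or CpG number matters apart from the ribosomal RNA locus and from the methylation level was not tested.

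The size of the difference moved with the level, in deep and other windows alike. Where the mean over all 4 libraries was 20% to 40%, deep windows differed by -8.88 points and others by -9.04. At 40% to 60% the values were -9.47 and -11.7 points. At 60% to 80%, which held 572 of the deep windows, they were -6.22 and -9.10 points, and at 80% to 100% -4.40 and -5.98. In the 28 deep windows under 20% the libraries overlapped, with a difference of -1.04 points, against -1.66 in other windows. There replicate 1 stood at 15.4% in iKO and 15.6% in control, and replicate 2 at 9.77% and 11.7%. In all 5 classes the deep windows had the smaller difference, which was not tested.

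Relative depth over all deep windows was lower in both iKO libraries than in both controls. Mean depth of the deep windows, over that of all CpGs in the same library, was 10.8 and 11.3 in iKO and 11.4 and 11.7 in control, an iKO to control ratio of 0.959. At the ribosomal RNA locus it was 28.5 and 30.5 against 31.3 and 33.2, and the ratio was 0.914. Ratios by depth class were 0.989, 0.981, 0.934 and 0.916 from the shallowest to the deepest. The depth of iKO replicate 1 over control replicate 2, which is built from the same class depths, fell along these classes too. It was 1.22 over all CpGs, 1.19 at 15 to 30 reads, 1.16 at 30 to 60, 1.08 at 60 to 120, 1.06 at 120 or more and 1.01 on the mitochondrial sequence. There, mean depth was 160.2, 157.9, 158.9 and 158.1 reads per CpG in the 4 libraries, and the greatest depth of any CpG was 241 to 246 in every library. Depth thus rose less than the library total in the deepest sequence, and a ratio below 1 there cannot be told apart from that. Without windows of 60 or more reads per CpG the ratio was 0.986.

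**Figure D5:**
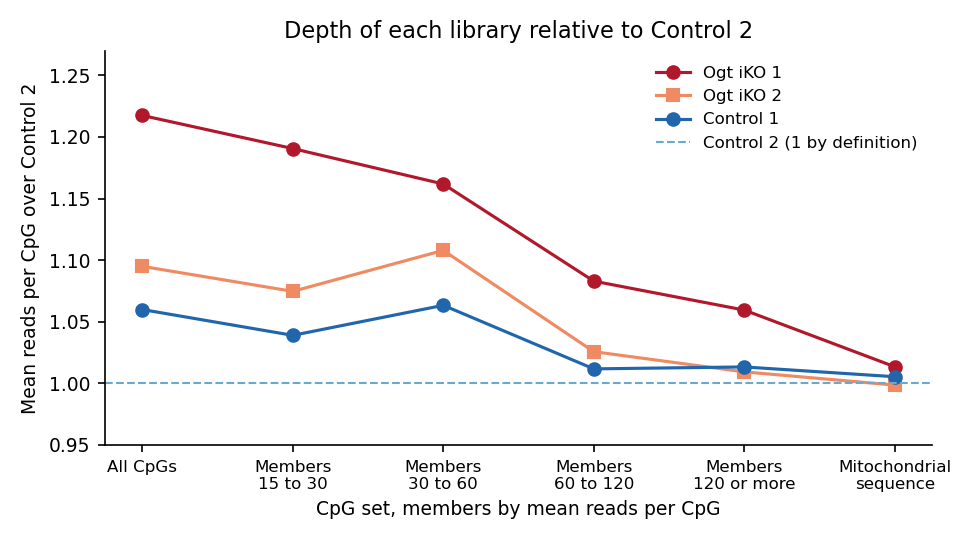
Mean reads per CpG of each library divided by that of control replicate 2 (vertical axis starts at 0.95), for all CpGs, 4 depth classes of the deep windows and the mitochondrial sequence. The ratio of iKO replicate 1 falls from 1.22 over all CpGs to 1.06 in the deepest class and 1.01 on the mitochondrial sequence.

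The chromosome 10 loci with CpGs 206, 208 or 212 bases apart, at a mean depth of 26.4 reads per CpG, had a ratio of 0.914. Their relative depth was 6.66 and 6.70 in iKO against 6.94 and 7.68 in control, so the ratio leans on control replicate 2. The group was picked after the data had been seen, and what sets its ratio was not tested. Across the 332 loci the median iKO to control ratio of relative depth was 0.966, from 0.671 to 1.26. Relative depth was lower in both iKO libraries at 100 loci and higher in both at 36. Depth chose these loci and no such share was computed over other windows, so the counts are a description only. The locus at the start of chromosome 10, from 3100001 to 3118000 over Gm30674 and Gm3318, stood out in 1 library. Its relative depth was 12.7 in replicate 2 of iKO, against 7.44 in replicate 1 and 8.07 and 8.45 in control. Its methylation was 72.8% and 72.7% in iKO and 74.7% and 75.8% in control. At the Dux locus relative depth was 6.37 and 6.22 in iKO and 6.15 and 6.76 in control, and at the Sfi1 locus 17.8 and 17.9 against 18.5 and 19.2.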

How the data were processed

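Genomic DNA of sorted cells was sequenced after bisulfite conversion in 4 libraries. BSMAP, Picard and mm10 are named in the submitters' processing notes without versions or roles. The deposited tables list, per CpG and per the file headers, counts of reads with C, of C or T, and of opposite-strand G and G or A. They also hold an expected count made by the authors, the C/T depth corrected for the opposite-strand G share, and a methylation fraction with its interval, deposited but not used in tests. The tables list 19181452 to 19789638 CpGs per library, with C/T read counts that sum over CpGs to 64273609 to 79929994 (a read counts once per CpG it covers), and 16341360 CpGs of the autosomes and X (79.0%) are listed in all 4.

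Reads were summed per window over CpGs listed in all files. A level is the count of C reads over C/T reads. Windows were tested by a quasi-binomial model with its dispersion moderated by limma 3.58.1 within classes of read number, F test and Benjamini-Hochberg adjustment, called at an adjusted p of 0.05 and 10 points. Python 3.11.15, pandas 2.3.3, R 4.3.3 and edgeR 4.0.16 were used. The fit was also run on simulated data, and no outcome of that run is given or relied on here. A value per library was compared by a two-sided exact permutation test over 6 arrangements. Intervals from read counts would cover counting error only.

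The windows, the lists and the rules were chosen with earlier results of these data known. Named loci are the chromosome 9 start, the ribosomal RNA locus, the 10 deepest, the 5 with most windows, and the 5 largest changes each way among loci of 3 or more windows with groups apart (none was higher). Sets by gene family or CpG spacing, and the spacing limits, were set after the data had been seen. Gene names and promoters come from RefSeq (GRCm38.p6). The samples were not treated as paired, although the table names share ESC1 or ESC2 between same-numbered libraries of the 2 groups. What these names mark is not stated. Deviations of same-numbered libraries correlated at -0.00496 over all windows and at -0.0801 over the deep windows. At a few reads per CpG such a correlation is mostly counting error, so it cannot settle whether the samples were paired. In weakly methylated deep windows same-numbered libraries did deviate together (21 of 28, with windows of the ribosomal RNA locus among the 28).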

Additional observations from a re-analysis of the deposited data

How the results depend on the processing

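The pooled difference of the deep windows was negative under each alternative run. It moved by more than the pooled SD with unweighted CpG levels (-5.89) and unweighted window levels (-6.02), and under the others that kept all libraries it lay between -5.74 and -3.89 points. Leaving out a library gave -5.85 to -2.83 points, with the smallest without iKO replicate 2 (-2.83). The gap to the rest of the genome was narrower in iKO than in control under each of them, by 1.94 to 3.92 points, and by 1.91 to 5.05 without a library, with the largest without control replicate 1 and the smallest without control replicate 2. With the replicate number as a block (mean of same-number differences) both values equal those without it by construction, -4.34 and 3.48 points.

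Calls of deep windows were 0 in the reported test and few elsewhere: 1 with dispersion moderated once over all windows, 3 along a spline trend, 4 with edgeR, 1 with the replicate block, and 0 to 1 without a library. The reported test called 33 windows genome-wide, and the count was 1, 3, 9 with the block, 56 with at least 5 CpGs, 22 with edgeR, 0 with limma and 0 to 1 without a library. Why these counts differ was not tested. As given above, the reported test could hardly call deep windows of 100 to 500 reads per library.

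The count of loci with both iKO libraries below both controls was 202 to 211 of 332 under other denominators and CpG filters, 252 of 399 with a gap of 2 kb, and 225 to 278 without a library, where the lone library of a group needs to lie beyond the other 2 only, a looser criterion. The depth ratio was 0.942 to 0.967 at other depth limits, 0.986 without windows of 60 or more reads, which was chosen after seeing the data, and 0.940 to 0.978 without a library. The G share difference was -0.0844 to 0.00488 points without a library, changing sign without iKO replicate 1 (0.00488).

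Of 60 other values at the 20 named loci, 58 moved by less than the pooled SD and 2 by more, both at chromosome 4 from 147232001, and none changed sign. One of the alternatives drops CpGs of 200 or more reads. At most of these loci it left the value unchanged, so the 58 include values that hardly could move. Leaving out a library changed the sign of 8 of 80 values, at 6 loci. The ribosomal RNA locus ranged from -3.68 to 2.33, positive without iKO replicate 2 (2.33) or control replicate 1 (1.38). Lars2 ranged from -5.16 to 4.04, positive under the same omissions (4.04 and 0.873). Chromosome 2 from 42078001 ranged from -6.18 to 0.370 (without iKO replicate 2). Without control replicate 1, chromosome 3 from 5860001 became 0.116 (lowest -4.92) and chromosome 16 from 11144001 became 0.758 (lowest -4.77). Chromosome 16 from 57391001 ranged from -3.17 (without iKO replicate 1) to 5.91. Depth limits the shallow loci: a window of 3 CpGs at 15 reads rests on few reads per library.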

Other observations

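Receptor pseudogenes overlapped part of the zinc finger cluster of chromosome 4. Deep windows overlapping Vmn2r-ps16, Vmn2r-ps17 and Olfr1300-ps1, relics of vomeronasal and olfactory receptor genes, numbered 25, and 24 of these lay in loci of that cluster. Both iKO libraries lay below both controls in 19 of the 25, beside 38.1% of all windows, and their median difference was -10.4 points. Genes with a predicted-gene symbol (Gm, LOC or Rik) were the widest group, with 51 genes in 164 windows. Single windows with some of the largest differences lay in the same part of chromosome 4. The window from 147232001 in Zfp978 stood at 36.6% and 44.0% in iKO against 65.3% and 74.8% in control over 5 CpGs, and its unadjusted p was 0.0109 with an adjusted p of 0.338 in the quasi-binomial fit. Outside that cluster, the window on chromosome 1 from 62869001, which overlaps no gene, stood at 63.5% and 61.0% against 81.5% and 80.6% over 6 CpGs. These windows were picked for their size of difference after the values were seen.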
